A study of Mus musculus with 947 samples.

Results

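The miR-297, miR-466, miR-467 and miR-669 families belong to the miRNA cluster that lies in an intron of the mouse gene Sfmbt2. They were chosen by name from small RNA sequencing tables of an aging cohort and of a parabiosis cohort: each row whose miRNA name begins with one of the 4 family numbers was taken, and rows with the same value in every library were counted once, as 1 profile named by its first member. In the aging cohort this gave 65 rows and 60 profiles, of 1076 miRNA rows and 1070 miRNA profiles, in a table of 7883 small RNAs. Of the 60 profiles, 4 belonged to miR-297, 27 to miR-466, 10 to miR-467 and 19 to miR-669. In the parabiosis cohort it gave 58 rows and 54 profiles, of 795 miRNA rows and 790 miRNA profiles.

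The aging cohort comprised 769 libraries from C57BL/6JN mice, 553 from males and the others from females, over 16 tissues and 10 ages from 1 to 27 months, with females up to 21 months and 1 to 6 libraries per tissue and age. The tissues were bone, brain, brown adipose tissue (BAT), gonadal, mesenteric and subcutaneous adipose tissue (GAT, MAT and SCAT), heart, kidney, limb muscle, liver, lung, bone marrow, pancreas, skin, small intestine and spleen. The parabiosis cohort comprised 176 libraries from GAT, heart, kidney, limb muscle, liver and MAT of 15 pairs of male mice, joined surgically so that they shared a circulation, with 6 to 8 libraries per tissue and group. In 7 heterochronic pairs an aged mouse of 19 months (HA) was joined to a young mouse of 4 months (HY). In 4 isochronic pairs 2 aged mice of 19 months (IA) were joined, and in 4 others 2 young mice of 3 or 4.5 months (IY). All HY mice came from a transgenic line that no other group came from, so that the line and the HY group cannot be told apart. The mice of the other groups were C57BL/6J or C57BL/6JN, and the study's sources differ on which mice were of which. Values are reads per 1000000 mapped reads (rpmm) as deposited. Fold changes are differences of log2(rpmm + 1), which understate the change of low miRNAs. Replicates are separate samples by their labels, and where these name no animal the p-values measure the spread between samples, which may be technical. In bulk tissue, fewer cells of a type and less RNA per cell cannot be told apart.

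A miRNA is cut from a hairpin precursor, either arm of which (5p or 3p) can give the mature strand, and bases 2 to 8 of the mature strand, the seed, pair with target mRNAs. Sfmbt2 encodes a Polycomb group protein and is an imprinted gene, expressed from the paternal allele in early embryos and placenta. Its large intronic miRNA cluster arose by tandem duplication in rodents, is best known from placenta and embryonic stem cells, and holds many near-identical hairpins, several of them rich in GU repeats. Reads of such paralogs can be assigned to more than 1 of them.

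The cluster label was checked against the annotation of the GRCm38 mouse assembly (GENCODE M21), the assembly of the mm10 build named in the labels. Sfmbt2 lay at chr2:10370510-10595253 on the plus strand. Of 81 annotated precursors of the 4 families, 71 lay inside the gene, none of these 71 overlapped an exon, and they spanned 51617 bases, from 10466663 to 10518279. The gene also held 48 other miRNA precursors. The remaining 10 precursors lay elsewhere. By precursor, the profiles miR-466i-3p and miR-466i-5p (chromosome 13), miR-466j (chromosome 10), miR-466k and miR-466q (both chromosome 3) and miR-467h (chromosome 9) came from outside the gene. The 2 arms of miR-297a and the 3 miR-466f profiles had copies both inside and outside, with Mir297-1 on chromosome 7 and Mir466f-4 on chromosome 13. The family names are therefore wider than the cluster, and members outside the gene are named as such below.

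Mature sequences were matched by name in a RefSeq table of the GRCm38.p6 assembly. It matched 5 members, each from outside the Sfmbt2 gene. They are shown because they bear the names of cluster families without lying in the cluster, and the levels of the miR-466 relatives are set against those of the cluster members later. The seed is in capitals, each is read 5′ to 3′, and each lies on the plus strand.
miR-466i-3p: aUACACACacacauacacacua
miR-466j: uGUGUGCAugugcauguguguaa
miR-466k: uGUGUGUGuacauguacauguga
miR-466q: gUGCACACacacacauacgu
miR-467h: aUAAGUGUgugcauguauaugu
They lie at chr13:17747552-17747573, chr10:60960802-60960824, chr3:85467396-85467418, chr3:28419988-28420007 and chr9:115381898-115381919, in that order. The 5 seeds all differed, although 4 of the 5 miRNAs bear the miR-466 name.

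Depth was recovered from the value of 1 read in each library. It ran from 2.29 to 167 M mapped reads (1 M is 1000000 reads) with a median of 20.1 M in the aging cohort, and from 9.20 to 47.6 M with the same median of 20.1 M in the parabiosis cohort, so that 1 rpmm stood for about 20.1 reads at the median. Each tissue was checked against markers known for it: 27 of 36 marker miRNAs were highest in their own tissue and 36 of 36 were among its 5 highest tissues. In the aging cohort 9 libraries were closest to another tissue than their own label: bone at 21 months replicate 37 and at 27 months replicate 44, MAT at 9 months replicate 54, all 3 MAT libraries at 27 months, pancreas at 3 months replicate 02, SCAT at 3 months replicate 16 and skin at 21 months replicate 24. In the parabiosis cohort 4 MAT libraries were closest to GAT. The libraries of brain with title numbers 25 to 36 and of kidney with numbers 1 to 12 held less miRNA signal and less of the members. Their summed member level had a median of 80.3 rpmm in 12 brain libraries, where the other sets of numbers had medians of 291 to 348 rpmm, and a median of 46.6 rpmm in 9 kidney libraries, where the other sets had medians of 142.5 to 196.7 rpmm. Results that rest on a single library named here are given with and without it.

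The first question was where in the body the members are found. The families were highest in spleen and bone marrow and lowest in pancreas, liver and limb muscle, and most members followed the same order of tissues. Summed over the 60 profiles, the median level was 642 rpmm in spleen (lowest 50.3, highest 2684, n = 55) and 542.8 rpmm in marrow (lowest 333, highest 996, n = 56). Lung followed at 335 rpmm (lowest 86.1, highest 678, n = 55) and brain at 292 rpmm (lowest 51.6, highest 706, n = 51). The ranges of these 4 tissues overlapped, and their quartile ranges overlapped between neighbours except between marrow and lung. In the middle stood MAT at 249, bone at 245, SCAT at 228, GAT at 189, small intestine at 159, BAT at 150, kidney at 148, heart at 135 and skin at 103 rpmm. Limb muscle had a median of 63.6 rpmm (lowest 33.6, highest 180, n = 47), liver of 51.5 rpmm (lowest 24.0, highest 105, n = 52) and pancreas of 30.4 rpmm (lowest 1.33, highest 70.9, n = 45). Of the 15 neighbouring tissues in this order, 13 had overlapping quartile ranges, the exceptions being marrow over lung and skin over limb muscle. The sums count reads shared by near-identical members more than once. Even in spleen the members were a small part of the miRNA signal, at a median of 0.274%, against 0.252% in marrow and 0.00972% in limb muscle. Spleen stayed first and marrow second under each of 5 alternatives, while the lowest tissue was limb muscle (33.97 rpmm) after scaling to miRNA reads and liver (60.1) after median-ratio scaling.

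miR-467e-5p, from an intronic precursor at chr2:10505721-10505807, was the most abundant member over the tissues, with a median of 22.99 rpmm over the 16 tissue medians. Its level was 104 rpmm in spleen (lowest 0, highest 398), 66.7 rpmm in marrow (lowest 10.6, highest 109) and 52.4 rpmm in lung (lowest 14.7, highest 127). It then fell through MAT at 36.2, brain at 32.5 and SCAT at 31.2 to limb muscle at 6.82, liver at 5.25 and pancreas at 2.70 rpmm. In the linear model of all tissues (limma, Benjamini-Hochberg adjustment, each tissue against the mean of the other 15), miR-467e-5p was higher in spleen by a log2 difference of 2.40 ± 0.11 (SE) and in lung by 1.34 ± 0.11, both past the threshold of an adjusted p under 0.05 and a log2 difference of at least 1. The call in lung was lost with median-ratio scaling (0.27) and with scaling to miRNA reads (0.66). Spleen and marrow overlapped over the whole marrow range.

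Several other abundant members also had spleen and marrow as their leading tissues, with miR-669a-5p, miR-669c-5p and miR-466i-5p among the exceptions. miR-467a-5p was at 48.1 rpmm in spleen and 46.3 rpmm in marrow, and miR-467c-5p at 34.3 and 31.4 rpmm. For miR-466c-3p the medians were 18.7 rpmm in spleen and 14.4 rpmm in marrow. For miR-669a-3p they were 40.3 and 18.0 rpmm, and for miR-297c-5p 12.5 and 7.70 rpmm. miR-669a-5p was at 33.4 rpmm in spleen, followed by lung at 19.4 and marrow at 18.3 rpmm. miR-467a-5p, miR-467c-5p and miR-466c-3p thus lay close together in the 2 tissues, while miR-669a-3p had its marrow median well under its spleen median. Across the 16 tissue medians, the rank correlation of the level with the sum of all other members, for the 39 profiles from inside the gene that reached a median of 1 rpmm in some tissue, ran from 0.909 to 0.994, with a median of 0.968. This is a description over 16 points that share libraries and depth, and members with nearly the same sequence share reads. Profiles correlated at 0.99 or more over the libraries, such as miR-466a-3p, miR-466b-3p and miR-466c-3p, or miR-467a-5p and miR-467b-5p, left 51 separate blocks of the 60 profiles.

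In the test of each tissue against the others, 37 of 56 profiles that passed a filter on low values in at least 1 tissue were higher in spleen, where 11.3% of all miRNA profiles were higher. Their median log2 difference in spleen was 1.36 over the members and -0.15 over all profiles. In marrow 28 of 56 were higher, with 15.8% of all profiles, and medians of 1.00 and -0.10. In lung 6 members were higher, with 23.3% of all, and in brain 4, with 34.4% of all, both shares below those of all profiles. Beside miR-467e-5p, the members with the largest differences were miR-669o-3p in spleen (2.24 ± 0.11) and miR-467c-5p in marrow (2.12 ± 0.09), and miR-467c-5p was also higher in lung (1.32). At the low end, 27 of 56 members were lower in pancreas, with 30.7% of all profiles lower there. In liver 21 were lower, with 19.9% of all, and in limb muscle 20, with 17.3% of all. The median log2 difference was -0.92 over the members and -0.47 over all profiles in pancreas, and -0.74 and -0.29 in liver. No member passed in GAT, heart, kidney, MAT, SCAT, skin or small intestine. A total of 77 higher and 71 lower calls was made in 896 tests of members, beside 1632 higher and 1679 lower in 14064 tests of all profiles. With median-ratio scaling the members had 86 higher and 42 lower calls. Of the 60 profiles, 16 passed the filter in every tissue, 56 in at least 1 and 4 in none (miR-466l-3p, miR-466m-3p, miR-669b-3p and miR-669c-3p), and the number per tissue ran from 16 in pancreas to 53 in spleen.

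A few members were highest elsewhere. Of the 39 inside profiles that reached a median of 1 rpmm, 35 had it in spleen, 3 in brain and 1 in marrow. The 3 brain profiles were miR-669c-5p, miR-669h-5p and miR-669k-5p. miR-669c-5p, from a precursor at chr2:10509296-10509404, had a median of 25.0 rpmm in brain (lowest 1.15, highest 64.8), close to 23.1 in spleen and 21.5 in marrow, and was higher in brain than in the other tissues by a log2 difference of 1.11 ± 0.12. miR-669h-5p was low throughout, at 1.64 rpmm in brain (lowest 0.127, highest 3.19), 0.443 in spleen and 0.253 in marrow, with a log2 difference of 1.07 in brain. It passed the filter on low values in 1 tissue only, the brain, and so had to be higher there, and its call is a description rather than a test. With scaling to miRNA reads both fell short of the fold threshold, at 0.52 for miR-669c-5p and 0.75 for miR-669h-5p. miR-467a-5p and miR-467b-5p made up the 4 called in brain. In bone the single call was miR-669d-5p, higher by 1.18 ± 0.07, with 6.14% of all profiles higher there.

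miR-466i-5p, whose 1 annotated precursor lies outside the cluster at chr13:17747473-17747593, had a different tissue order from most members. It was highest in marrow at 39.4 rpmm (lowest 15.2, highest 74.1), then in bone at 25.6, BAT at 21.5 (lowest 2.60, highest 153.8) and skin at 12.2 rpmm. In spleen it stood at 9.82 rpmm (lowest 0.599, highest 30.1), near limb muscle at 9.04, and it was lowest in liver at 4.75 rpmm. Its log2 difference was 1.88 ± 0.12 in marrow and 1.14 ± 0.15 in BAT, both called, and -0.09 in spleen, with an adjusted p of 0.474 (limma). BAT had miR-466i-5p as its single higher call, with 5.23% of all profiles higher there, while miR-467a-5p, miR-467b-5p and miR-467e-5p were lower in BAT, with 19.2% of all profiles lower. The rank correlation of miR-466i-5p with the sum of the other members over the 16 tissues was 0.25. For miR-466i-3p, the other arm of that precursor, it was 0.959, at a median of 0.205 rpmm over tissues. Whether the miR-466i-5p reads come from that hairpin was not tested. miR-466i-5p was the most abundant member in BAT, bone, limb muscle, pancreas and skin, and miR-467e-5p in the other 11 tissues. As a result, members placed outside the gene by annotation made up 21.6% of the summed medians in pancreas. They made up 17.8% in limb muscle and 17.6% in BAT, against 2.24% in spleen and 2.47% in brain. The other miR-466 relatives outside the gene did not share this order throughout: miR-466i-3p and miR-466j were highest in spleen, miR-466k in marrow, and miR-466q, at 0.519 rpmm, in limb muscle.

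The balance of the 5p and 3p arms differed between members. For miR-467e the median over tissues was 22.99 rpmm for the 5p arm and 0.419 rpmm for the 3p arm, and for miR-669c it was 8.65 and 0.0601 rpmm. For miR-669a both arms were at about the same level, 9.06 rpmm (5p) and 9.02 rpmm (3p), and likewise for miR-466c at 4.63 and 4.31 rpmm. For miR-466a the order was turned, at 1.73 rpmm (5p) and 4.31 rpmm (3p). The 3p arms of miR-669a, miR-466c and miR-466a are among those that share reads with other members (miR-669o-3p for the first, each other and miR-466b-3p for the last 2). As identical rows, miR-669a-5p also stands for miR-669p-5p, miR-466a-3p for miR-466e-3p and miR-466c-3p for miR-466p-3p. miR-669a moreover has 12 annotated precursors. The levels of these arms thus do not belong to 1 hairpin alone. By the same measure as above, the miRNAs outside the families with tissue patterns most like the summed members were miR-342-3p (rank correlation 0.918 over 16 tissue medians), miR-342-5p (0.874), miR-150-3p (0.859) and miR-150-5p (0.829).

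Age was compared next, with the Spearman rank correlation (rho) between level and age within each tissue, called where rho was above 0.5 or below -0.5. Members fell with age in spleen and SCAT, and in no other tissue did a member pass this threshold. In all, 58 of 574 tests of members were called, each of them negative, while 4.26% of all miRNA tests had a rho below -0.5. In spleen 44 of 53 members tested fell with age, where 9.33% of all profiles did, and these 44 were most of the 49 profiles that fell in spleen. The median rho was -0.55 over the members and -0.12 over all spleen profiles. In SCAT 14 of 40 members fell, where 11% of all profiles did, with medians of -0.45 and -0.10. The 13 members called in both tissues were 29.5% of the spleen calls and 92.9% of the SCAT calls.

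In spleen the strongest correlation was that of miR-466p-5p. Its level was 16.1 to 28.5 rpmm (median 17.7) at 1 month, 0 to 15.8 (median 12.3) at 3 months, and had medians of 10.2 at 6, 8.40 at 9, 8.63 at 12, 7.48 at 15 and 8.22 at 18 months. At 21, 24 and 27 months the medians of miR-466p-5p were 5.77, 5.55 and 6.02 rpmm. The libraries at 1 month lay above every library at 3 months, and after that the decline was gradual with overlapping ages. The rank correlation rho was -0.676 (n = 55, permutation p = 1e-05, no smaller p being possible with 100000 shuffles, adjusted p = 0.000262) and Pearson's r of the log2 level was -0.494 (permutation p = 0.00011), or -0.509 without the 2 libraries farthest in age from the median. With the means of sets of 12 title numbers removed from the ranks, rho was -0.654, and with the means of plates removed -0.608.

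Other families moved with it. miR-466f had a rho of -0.657 and an r of -0.604 (-0.605 without the 2 farthest libraries, -0.636 within sets, -0.620 within plates). For miR-297c-5p rho was -0.634, and for miR-467c-5p -0.607, with an r of -0.572. The median of miR-467c-5p was 95.8 rpmm at 1 month, 66.6 at 3, 19.4 at 21 and 28.99 at 27 months. The most abundant member, miR-467e-5p, was at 221 to 398 rpmm (median 236) at 1 month, 0 to 177 (median 120) at 3 months and 21.7 to 118 (median 77.3) at 21 months, with a rho of -0.541 (adjusted p = 0.000362). Its Pearson's r was -0.230 (permutation p = 0.0839), so that for miR-467e-5p only the rank correlation passed. The spleen library with 0 rpmm of miR-467e-5p was 3-month replicate 01, which held 3.34 M reads and 43664 rpmm of miRNA. Over the 44 called members the adjusted p ran from 0.000262 to 0.00111, rho within sets from -0.665 to -0.461 and within plates from -0.620 to -0.409. On the 2 sides of the threshold stood miR-467c-3p at -0.502 and miR-466i-3p at -0.493. Of the members outside the gene, miR-466j (-0.613) and miR-466k (-0.606) also fell, while miR-466i-5p had a rho of 0.0913 (adjusted p = 0.698), the 1 positive value among the 53.

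The summed level in spleen had a median of 1491 rpmm at 1 month (lowest 1321, highest 2684), 1065 at 3 months (lowest 50.3, highest 1438), 798 at 6, 701 at 9, 777 at 12, 553 at 15, 691 at 18, 492 at 21, 466.2 at 24 and 592 at 27 months. Much of the fall lay in the first months. Without the 1-month libraries 4 of 52 members had a rho below -0.5, with 0.942% of all profiles, or 5 in all. miR-466p-5p (-0.542), miR-466f (-0.551) and miR-297c-5p (-0.517) were among these 4, and miR-467c-5p (-0.488) and miR-467e-5p (-0.355) were not. With males alone 13 were called. Leaving out 1 library at a time gave 38 to 47. Of the 5 white blood cell miRNAs that were fixed as markers, 0 were called in spleen, with rho from -0.20 to 0.34, and their summed level was 30246 to 230939 rpmm (median 37372) at 1 month and 20704 to 137953 (median 64360) at 21 months. The 4 red blood cell, 3 muscle and 5 epithelial markers had 0 calls as well, and no marker was at 0 in every library. The part of these cell types in the spleen result was not tested.

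SCAT fell from a higher level in the first year. miR-669b-5p was at 0.629 to 17.9 rpmm (median 10.8) at 3 months, had a median of 11.5 at 9 months, and was at 2.08 to 10.1 (median 4.97) at 21 and 4.30 to 4.86 (median 4.66) at 27 months. The lowest 3-month value was that of replicate 16, the library closest to bone, and the medians at 21 and 27 months were under those at 3 and 9 months. For miR-669b-5p rho was -0.614 (n = 44, permutation p = 2e-05, adjusted p = 0.000582), with an r of -0.419 (permutation p = 0.00382, or -0.422 without the 2 farthest libraries), and -0.610 within sets and -0.662 within plates. miR-466c-5p followed with a rho of -0.596 (adjusted p = 0.00153) and an r of -0.408. The 14 called members had adjusted p from 0.000582 to 0.00509, with rho of -0.610 to -0.472 within sets and -0.662 to -0.551 within plates. miR-669f-5p at -0.502 and miR-297a-3p at -0.468 stood on either side of the threshold, and miR-466i-5p was again the 1 positive value, at 0.226 (adjusted p = 0.281).

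Leaving libraries out of SCAT raised the count. Without the library closest to another tissue 27 members fell, with 17.9% of all profiles, without the 1-month libraries 18 (10.9%), and without both 35 (19.5%), when miR-669b-5p had a rho of -0.785 and miR-466c-5p of -0.774. Without the 24- and 27-month libraries 7 were called, and leaving out 1 library at a time gave 8 to 27, the highest without replicate 16. The summed level had medians of 272 rpmm at 3 months (lowest 45.6, highest 643), 328 at 6, 291 at 9, 154.7 at 21 and 139 at 27 months. In SCAT the 5 white-cell markers had rho from -0.49 to -0.05 and 0 calls, and their sum was 457 to 16657 rpmm (median 5174) at 3 months, 506 to 3633 (median 2043) at 21 and 1532 to 4547 (median 2257) at 27 months. These rho values were all below 0, as were those of the called members. The 4 red-cell markers had rho from -0.18 to -0.04. The 3 muscle markers had 0.09 to 0.13 and the 5 epithelial markers -0.05 to 0.13, all without calls. The part of these cell types in the SCAT result was not tested. Another miRNA cluster of an imprinted region, that of Dlk1-Dio3, had 31 of 43 profiles called lower with age in SCAT and 0 of 19 in spleen.

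The other tissues gave a mixed picture without calls at the rho threshold. By adjusted p some members of other tissues were called as well, within the count given among the alternatives below. Marrow, second in level, had a median rho of -0.20 over its 48 members, with -0.368 for miR-467c-5p and -0.293 for miR-467e-5p, and summed medians of 585 rpmm at 1 month and 528 at 27 months. In brain the median was -0.31 and 0 of 44 members had a positive rho, where 53.2% of all profiles did, with a median of 0.01. The 12 brain libraries with title numbers 25 to 36, which held less of the members, were kept in. No rho within sets is given for brain. In MAT the median was 0.22 and 39 of 40 members were positive, where 65.0% of all profiles were, with a median of 0.16, and all 3 MAT libraries at 27 months were closest to GAT. The difference in linear slope of the log2 level with age between tissues was tested in a comparison chosen after seeing the data. Between spleen and marrow 0 of 53 members differed (limma), and 0% of all profiles had a lower slope. An unadjusted p under 0.05 was held by 44 members, beside 87 of 572 profiles. The median difference was -0.33 per 10 months over the members and -0.06 over all profiles. Between SCAT and GAT 0 of 41 differed, where 3.23% of all profiles had a lower slope in SCAT. Here 17 members were at an unadjusted p under 0.05, beside 83 of 620 profiles. Without the libraries closest to another tissue 17 members were called, with 8.71% of all profiles. Between SCAT and MAT 37 of 41 members had a lower slope in SCAT, where 17.9% of all profiles did, and 39 did so without the libraries closest to another tissue, when 30.9% of all did. miR-466b-5p differed by -0.45 ± 0.10 per 10 months (adjusted p = 0.000759, limma), from a slope of -0.29 in SCAT and 0.16 in MAT.

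Mice of 21 and 3 months were also compared directly, in tissues with at least 3 libraries at both ages. BAT, with 2 libraries at 3 months, and skin, with 2 at 21 months, were therefore not tested. The same minimum held at the other ages, so that BAT was compared with 3 months at no age. Of 513 tests of members 7 were higher at 21 months and 0 lower, where 2.19% of all tests were higher, all 7 of them in small intestine, where 7 of 35 members and 11.9% of all profiles were higher. miR-669a-3p was at 9.50 to 15.5 rpmm at 21 months and 4.60 to 8.21 at 3 months, with no overlap, means of 12.7 and 6.51, and a log2 difference of 0.88 ± 0.19 (adjusted p = 0.00324, limma). The near-identical miR-669o-3p moved with it. miR-297c-5p was at 2.17 to 5.71 rpmm at 21 and 1.42 to 2.22 at 3 months, with a difference of 0.76 (adjusted p = 0.0183). miR-466i-5p had means of 40.7 and 11.1 rpmm and a difference of 1.26 ± 0.42 (adjusted p = 0.0427), which rested on replicate 49 at 149.9 rpmm: without that library it was 0.75 (adjusted p = 0.202), and over its alternatives the adjusted p ran from 0.00837 with edgeR to 0.246 with the plate as a covariate. Smaller differences were called for miR-669d-5p (0.51), miR-297a-3p (0.46) and miR-466a-5p (0.44).

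The summed level in small intestine was 123 to 163 rpmm at 3 months and 157 to 336 at 21 months. All profiles shifted too, with a median log2 difference of 0.22, beside 0.37 over the members, and median-ratio scaling gave -0.03 and 0.16 with 2 members called. Over all tissues that scaling gave 2 higher and 10 lower calls of members. Without 21-month replicate 49 or 56, or 3-month replicate 29, 4 members were called, with 8.63%, 4.87% and 4.29% of all profiles higher. Without 21-month replicate 37 it was 10, with 15.8% of all profiles. In small intestine 0 of the markers of white cells, red cells, muscle and epithelium were called. The 5 epithelial markers had log2 differences of -0.86 to -0.46 (median -0.72) and summed to 18073 to 41050 rpmm at 3 months and 3303.5 to 34158 at 21 months, the 3 red-cell markers tested had 0.12 to 0.87 (median 0.86), and the 5 white-cell markers had -0.37 to 0.44. Their part in the result was not tested. In spleen 0 members were called and 0.19% of all profiles were lower, with 13 members at an unadjusted p under 0.05, and 23 of 53 were lower, with 4.95% of all profiles, once 3-month replicate 01 was left out, a library whose summed member level was 50.3 rpmm and whose white-cell markers summed to 1535 rpmm against 26940 to 66437 in the others of that age. In SCAT 0 were called, with 2.23% of all profiles lower, and 32 members were lower without replicate 16, when 25.8% of all profiles were. In the main setting the calls of spleen and SCAT in this comparison thus depended on these 2 libraries. With both kept, median-ratio scaling gave 3 lower members in spleen and 5 in SCAT. Scaling to miRNA reads gave 1 and 3. Over all tissues in the main setting, 59 of 513 tests of members were at an unadjusted p under 0.05 (limma), beside 1448 of 7713 of all. Leaving out kidney 3-month replicate 23 gave 4 higher members of 35 in kidney, with 22.8% of all profiles, and leaving out liver 21-month replicate 17 gave 2 of 20 in liver, with 19.8%.

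At the other ages against 3 months, 38 of 4109 tests of members were higher and 0 lower, with 1.08% of all tests higher, and 85 higher and 10 lower with scaling to miRNA reads. In MAT at 27 months 31 of 40 members were higher, with 23.5% of all profiles, but all 3 of these libraries were closest to GAT, so that the age and the tissue of origin cannot be told apart there. In liver 6 calls were made. miR-669c-5p was at 1.94 to 6.72 rpmm at 1 month and 0.418 to 2.49 at 3 months, a log2 difference of 1.10 ± 0.28 (adjusted p = 0.0142, limma), and miR-669l-5p was also higher at 1 month (0.73, adjusted p = 0.0119), with 2.01% of all profiles. At 6 months miR-466c-5p was higher by 0.58, with 14.1% of all profiles. At 27 months miR-467e-5p was higher by 1.10 (adjusted p = 0.0388), with miR-297a-5p and miR-669l-5p, when 28.2% of all liver profiles were. miR-669c-5p was not called without liver 3-month replicate 35 (0.97) or with the plate as a covariate (1.05), and miR-467e-5p not without liver 3-month replicate 14 (0.99) or with median-ratio scaling (0.49) or scaling to miRNA reads (0.56). In MAT at 1 month miR-466i-5p was at 7.54, 15.8 and 87.4 rpmm against 3.07 to 8.84 at 3 months, a difference of 1.98 ± 0.46 (adjusted p = 0.0183), with 0.512% of all profiles higher, which was lost without 3-month replicate 05 or 17. The 3-month libraries weighed on other tissues as well: in kidney 31 of 280 tests of members were higher without replicate 23, with 6.09% of all tests, and 20 without replicate 32, with 3.33% of all. Most of these were at 1 month: 20 of 35 members without replicate 23, with 7.07% of all profiles, and 13 of 35 without replicate 32, with 2.72%. In SCAT 33 of 280 were lower without replicate 16, with 8.03% of all tests, and 24 of 266 higher without replicate 43, with 7.40% of all. In spleen 19 of 424 were lower without replicate 01, with 0.5% of all tests, and 7 higher without replicate 11, with 0.571% of all.

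Females and males were compared within each tissue up to 21 months with age as a covariate. Of 571 tests of members 9 were higher in females and 0 lower, where 1.86% of all tests were higher, 7 of them in skin and 2 in kidney. In skin 7 of 25 members were higher, with 12.6% of all profiles. miR-466b-3p was at 1.93 to 4.45 rpmm (median 3.02, n = 13) in females and 0.532 to 3.00 (median 1.75, n = 28) in males, a log2 difference of 0.57 ± 0.12 (adjusted p = 0.000143, limma). The ranges overlapped, with the female median just above the highest male. The other miR-466 3p arms moved with it (miR-466d-3p by 0.45, adjusted p = 0.000263), as did miR-467a-5p (0.45, adjusted p = 0.0460) and miR-669b-5p (0.36). After scaling to miRNA reads 4 were called, and miR-467a-5p was not among them (0.27, adjusted p = 0.199, the range over its alternatives reaching 0.425). Skin also differed in other miRNAs: 3 of 5 epithelial markers were higher in females (summed level 2908 to 11094 rpmm in females, 222 to 11525 in males), 2 of 5 white-cell markers were higher (627 to 2403 and 511 to 3664 rpmm), and 51 of 52 Dlk1-Dio3 profiles were lower. Their part in the result was not tested. In kidney miR-467a-3p, which is near-identical to the second call miR-467d-3p, was at 0.231 to 3.26 rpmm (median 1.41, n = 14) in females and 0 to 2.37 (median 0.807, n = 29) in males, a difference of 0.56 ± 0.16 (adjusted p = 0.0415), with 1.82% of all profiles higher.

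The parabiosis cohort asked whether the levels of aged mice change when they share the circulation of a young mouse, and the reverse. In neither direction did a member pass. Between aged mice joined to young and to aged mice (HA against IA) 0 tests of members were called by limma and by edgeR, where 0.972% of all profiles were, with 16 of them at an unadjusted p under 0.05, and the smallest was that of miR-466c-3p in heart (unadjusted p = 0.0031), which did not pass. Leaving out pair 11, 19, 6 or 20 gave 4, 4, 5 and 8 calls, all of them higher in HA. In heart 4 of 33 were higher without pair 11, 19 or 20, with 5.29%, 6.65% and 6.05% of all profiles. In kidney 5 of 35 were higher without pair 6 and 4 without pair 20, with 2.83% and 3.20% of all profiles. Between young mice joined to aged and to young mice (HY against IY) 0 were called by either tool, with 18 at an unadjusted p under 0.05. The smallest was that of miR-466h-5p in heart (unadjusted p = 0.00149), which did not pass, and no pair left out changed the count. Of all profiles 0% were called in this comparison, in which the transgenic line of the HY mice and their pairing cannot be told apart.

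Aged and young mice were then compared within each kind of pairing. Between HA and HY 21 members were higher and 0 lower, where 5.36% of all tests were higher, 16 of them in kidney and 5 in heart. In kidney 16 of 35 members were higher, with 13.1% of all profiles. The median log2 difference was 0.52 over the members and -0.03 over all profiles, and 35 of 35 were positive. miR-466c-3p was at 5.24 to 9.58 rpmm in HA and 3.11 to 4.39 in HY, with no overlap, a log2 difference of 0.85 ± 0.18 (adjusted p = 0.00124, limma). In the isochronic groups miR-466c-3p was at 3.46 to 8.39 rpmm in IA and 2.34 to 7.23 in IY, which overlapped over most of their ranges. miR-297a-5p was at 1.96 to 4.46 in HA and 0.994 to 2.41 in HY (0.75 ± 0.19, adjusted p = 0.00452), miR-467a-5p at 16.7 to 31.9 and 8.48 to 20.6 (0.74 ± 0.25, adjusted p = 0.0284) and miR-669a-3p at 6.48 to 17.8 and 5.02 to 10.3 (0.62, adjusted p = 0.0299). The last 3 overlapped between HA and HY, each with an HA median above the highest HY library. miR-467e-5p, the most abundant member, was not called, at 12.1 to 28.9 rpmm in HA and 10.9 to 17.6 in HY.

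The summed level in kidney was 174 to 278 rpmm in HA (median 239, n = 6), 121 to 160 in HY (median 140.98, n = 7), 118 to 264 in IA (median 174, n = 8) and 129 to 235 in IY (median 150, n = 8). HA and HY did not overlap, and IA and IY did. Without pair 11 or 12, 5 members were called in kidney, with 9.59% and 9.04% of all profiles higher, and without pair 5, 8, with 9.60%. Without each other pair 13 to 19 were called, with 12.4% to 13.5% of all profiles higher where the count changed. White-cell markers were higher in HA too, 4 of 5 of them, with sums of 1227 to 3075 rpmm in HA, 689 to 1238 in HY, 1294 to 2722 in IA and 746 to 1544 in IY. Of 3 muscle markers 1 was higher, with log2 differences of -0.76 to 1.02. The 4 red-cell markers (0.34 to 0.65) and the 5 epithelial markers (-0.23 to 0.34) had 0 calls. The part of these cell types in the kidney result was not tested. In heart 5 of 33 members were higher in HA, with 10.9% of all profiles: miR-466d-3p was at 2.41 to 3.595 rpmm in HA and 1.22 to 3.29 in HY (0.41, adjusted p = 0.0260), and 4 near-identical miR-466 3p arms were at 5.10 to 6.89 in HA and 3.16 to 5.88 in HY. In heart 0 were higher without pair 1, 2, 5, 12 or 20, when 3.72% to 9.77% of all profiles were. With all pairs 2 of 5 white-cell and 2 of 5 epithelial markers were higher in heart, and 0 of 4 red-cell and 0 of 3 muscle markers. Their part in the heart result was not tested.

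Between IA and IY 2 members were higher and 0 lower, where 3.42% of all tests were higher. Both were in heart, where 9.77% of all profiles were higher. They were the near-identical miR-467a-5p and miR-467b-5p. miR-467a-5p was at 8.93 to 17.03 rpmm in IA and 6.52 to 12.6 in IY, a log2 difference of 0.55 ± 0.16 (adjusted p = 0.0199, limma), with overlap. In the same comparison 1 of 5 white-cell markers was higher (log2 differences up to 0.77, sums of 1277 to 1836 rpmm in IA and 1114 to 1602 in IY) and 1 of 3 muscle markers was lower (down to -0.49, sums of 118662 to 206342 rpmm in IA and 176570 to 226336 in IY), and their part in the result was not tested. Neither was called without pair 16, 17 or 9, without the 3-month IY mice or with the sequencing pool as a covariate. Whether the difference between aged and young mice itself differed between the heterochronic and isochronic pairs was tested as an interaction, chosen after seeing the data: 0 tests of members were called (limma), where 0.596% of all profiles were, with 9 in kidney and 10 in heart at an unadjusted p under 0.05. The kidney calls of the heterochronic pairs are therefore not shown to differ from the isochronic pairs.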

How the data were processed

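Small RNA libraries were read on a BGISEQ500RS sequencer. The authors mapped the reads with miRMaster and Bowtie against miRBase and other RNA references, dropped RNAs that stayed under 1 rpmm throughout, and deposited the signal per RNA as reads per 1000000 mapped reads (rpmm). The build named in the labels is mm10. Of the library columns of the aging table, 2 were not matched to a sample and were not used, and 1 liver column, whose name carries another number than its sample's title, was matched through the deposited annotation, with the same age and sex. Values were turned back into reads by the value of 1 read: 100% of values of other RNAs were whole within 0.05 of a read, 99.0% and 98.8% of miRNAs and 94.6% and 94.1% of members (aging, parabiosis), so miRNA reads shared between paralogs were partly split.

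For a profile to be tested in a tissue, 10% or more of that tissue's libraries had to hold 1 rpmm of it. Tests used limma 3.58.1 in R 4.3.3 on log2(rpmm + 1) with Benjamini-Hochberg adjustment over all miRNA profiles of a tissue, called at an adjusted p under 0.05, and rank correlations with 100000 permutations (NumPy 2.4.6, SciPy 1.17.1). edgeR 4.0.16 on the recovered reads, as an alternative, called 9 members at 21 against 3 months (7 higher, 2 lower), 21 for HA against HY, 2 for IA against IY, and 0 for HA against IA and HY against IY. The fits were tested on simulated data. Mice of a pair share a pair number, which is part of the label, and the consensus correlation within pairs ran from -0.284 in MAT to 0.237 in liver. Title numbers in the aging cohort do not mark a mouse across tissues. Named are the most abundant members of each family, up to 2 or 3 called members per tissue and comparison by size or adjusted p, the smallest unadjusted p where none was called, and members outside the gene. Members and lists were chosen with earlier results of these data known. The name of the transgene of the HY line is not reported here.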

Additional observations from a re-analysis of the deposited data

Results flagged for a closer look

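Within groups of 4 to 10 libraries, a library was set apart where its gap to the nearest other library, divided by the range of the group, was above the 95% critical value of Dixon's test. Of 180 such tests, on the summed member level and on 6 named members in the groups they were compared in, 14 set a library apart, where chance gives about 1 in 20. In spleen at 1 month replicate 48 held 2684 rpmm (the others 1321 to 1531), and at 27 months replicate 52 held 193.8 rpmm (the others 577 to 619) with 134096 rpmm of miRNA. In brain at 9 months replicate 33 held 75.1 rpmm (the others 282 to 364) and belongs to the low set of title numbers 25 to 36. In kidney replicate 09 at 1 month held 43.1 rpmm (the others 228 to 327) and replicate 03 at 24 months held 46.6 rpmm (the others 135.1 to 142.05), both of the low set of numbers 1 to 12.

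In GAT at 3 months replicate 16 held 339 rpmm. In heart replicate 09 at 3 months held 191 and replicate 35 at 6 months 178 rpmm. Limb muscle at 15 months replicate 22 held 111 rpmm, lung at 21 months replicate 25 held 368 rpmm and skin at 27 months replicate 25 held 245 rpmm. In parabiosis GAT, HA replicate 1A held 1152 rpmm (the others 227 to 374) and IA replicate 6A held 1347 rpmm (the others 250.5 to 455.1). For miR-466i-5p in small intestine at 21 months, replicate 49 held 149.9 rpmm (the others 8.99 to 35.4).

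The slope of the members with age differed between 2 tissues: 37 of 41 members had a lower slope in SCAT than in MAT, where 17.9% of all profiles did, by -0.45 per 10 months for miR-466b-5p. The comparison was chosen after seeing the data, and between SCAT and GAT 0 of 41 members differed.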

How the results depend on the processing

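Of the named single-member results, 276 alternatives left the call as it was, 38 lost it and none turned the direction. The counts of calls below are of members alone, over both directions, without the share of all profiles in the same setting. They show how the member calls depend on the setting, not whether members moved apart from all miRNAs. Counts under alternatives given earlier without such a share carry the same limit. Calls of the age correlation went from 58 to 106 by adjusted p, 19 with a mean of at least 10 rpmm and 22 without the 1-month libraries, and to 52 to 71 with 1 library left out. In spleen they went from 44 to 13 in males, 18 at 10 rpmm, 28 with plates and 4 without the 1-month libraries, also when libraries closest to another tissue were left out too (38 to 47 with 1 library left out). In SCAT they went from 14 to 37 by adjusted p, 30 in males, 1 at 10 rpmm, 23 with plates, 27 without the library closest to another tissue, 7 without 24 and 27 months and 35 without that library and 1 month (8 to 27 with 1 library left out). At 21 against 3 months the 7 calls became 3 in males, 1 at 10 rpmm, 12 with median-ratio scaling, 12 with scaling to miRNA reads, 39 without libraries closest to another tissue, and 4 to 39 with 1 left out. At other ages 38 became 8 at 10 rpmm, 95 with scaling to miRNA reads, 86 with plates, and 32 to 71 with 1 left out. Of the calls with plates, 26 were in kidney at 1 month and 26 in brain at 12 months, the 2 tissues with low sets of title numbers. The share of all profiles called there is not given, and no result on the members is drawn from these calls. For sex 9 became 1 at 10 rpmm, and for tissue 148 became 314 with a pseudocount of 0.1. For IA against IY 2 became 0 with the sequencing pool and without 3-month IY mice, and 0 to 3 with 1 pair left out. For HA against HY 21 became 2 at 10 rpmm and 12 with near-identical profiles joined, and 5 to 23 with 1 pair left out. For HA against IA 1 pair left out gave 0 to 8, and for HY against IY 0 to 0. The pool, the joined profiles and the combined exclusion were chosen after seeing the data. With the replicate block by pair HA against HY gave 23 calls, and the block changed no other parabiosis count. The summed level moved with scaling to miRNA reads in bone (492.6), heart (86.1), limb muscle (33.97), lung (207.98), marrow (881.5), pancreas (83.0) and skin (140.1), and with median-ratio scaling in bone (366), lung (142.4) and pancreas (76.1). The cause of these changes was not tested, apart from fewer profiles being tested at 10 rpmm and fewer libraries where some were left out. At the median depth 1 rpmm is about 20.1 reads, so members under 1 rpmm rest on few reads, and the smallest groups of 1 to 3 libraries limit single ages.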
